A study of Homo sapiens with 6 samples.

Results

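Kruppel-like factors were followed in HMEC-1 cells, a human dermal microvascular endothelial line immortalised with a viral large T antigen, after knockdown of the lysine methyltransferase SETD7 (Set7). The members were the 10 rows of the deposited count table whose symbol was KLF2, KLF3, KLF4, KLF5, KLF6, KLF7, KLF9, KLF10, KLF11 or KLF13, out of 18544 listed genes, and 10 of 10 passed the filter on low counts that left 18482 genes for testing. Set7KD cells (n = 3) carried a lentivirus delivering an shRNA that targets Set7, and NTC cells (n = 3) carried a lentivirus delivering a non-targeting shRNA. Cells of both groups were grown in MCDB131 medium with 5.5 mM glucose, and no other treatment is labelled. The replicates are described as biological, but no source used here says whether they were separate transductions or how many hairpin sequences were used. The p-values therefore reflect only library-to-library spread, which may be technical. Levels are in CPM, gene counts scaled to a common library total after TMM, a correction for library composition.

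KLFs are transcription factors with a conserved block of zinc fingers at the carboxyl end, which binds GC-rich and CACCC sequences, and divergent amino-terminal parts that recruit co-activators or co-repressors. In endothelium KLF2 and KLF4 are best known as genes induced by laminar flow through the kinases MEK5 and ERK5 and the MEF2 factors. They favour anti-thrombotic and vasodilator genes such as THBD and NOS3 and hold down inflammatory adhesion molecules. KLF6 and KLF10 are transcribed rapidly after injury, serum or TGF-beta, much like immediate early genes.

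The start-site regions of KLF2 and KLF4, which had the lowest fold changes, and of KLF7, which was called higher, are shown first. For 8 of the 10 members RefSeq windows on GRCh38.p14, of 250 bases before to 50 bases after a start site, were available. KLF3 and KLF10 had none in the table used. The KLF2 window lies at chr19:16324576-16324875 on the plus strand, the KLF4 window at chr9:107489720-107490019 on the minus strand, and the upstream-most of 4 KLF7 windows at chr2:207167197-207167496 on the minus strand. Capitals mark a MEF2 motif in KLF2, GC boxes spelled CCGCCC on either strand in KLF4, and a CArG box, the SRF motif, in KLF7.
KLF2: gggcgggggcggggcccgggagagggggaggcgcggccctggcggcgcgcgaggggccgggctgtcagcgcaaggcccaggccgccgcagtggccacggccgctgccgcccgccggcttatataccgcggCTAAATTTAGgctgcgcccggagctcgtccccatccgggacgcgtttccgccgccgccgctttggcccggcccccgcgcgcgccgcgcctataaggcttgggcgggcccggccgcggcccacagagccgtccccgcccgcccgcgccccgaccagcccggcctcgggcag
KLF4: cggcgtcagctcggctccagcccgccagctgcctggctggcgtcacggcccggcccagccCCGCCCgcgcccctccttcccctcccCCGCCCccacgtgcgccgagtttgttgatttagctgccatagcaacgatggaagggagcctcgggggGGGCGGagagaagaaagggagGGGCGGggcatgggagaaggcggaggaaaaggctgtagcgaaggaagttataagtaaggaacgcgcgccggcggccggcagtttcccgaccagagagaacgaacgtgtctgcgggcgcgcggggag
KLF7: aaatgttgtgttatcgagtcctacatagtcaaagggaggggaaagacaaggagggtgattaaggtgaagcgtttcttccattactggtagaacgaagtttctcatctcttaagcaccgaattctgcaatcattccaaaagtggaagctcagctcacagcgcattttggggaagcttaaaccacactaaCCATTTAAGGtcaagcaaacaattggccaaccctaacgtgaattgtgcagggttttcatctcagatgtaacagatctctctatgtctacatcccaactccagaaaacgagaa

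Both strands were searched. The MEF2 motif stood from 120 to 111 bases before the KLF2 start and in no other member's window, and 2.99% of 35116 RefSeq windows of this length hold it. The CArG box stood from 62 to 53 bases before that KLF7 start, against 1.29% of all windows. It was in no other KLF7 window and in no other member's window. That KLF7 window is the one shown because it holds the box, so the share of single windows is not a like comparison. GC boxes numbered 6 in the KLF2 window, of which 2 overlap, and 4 in the KLF4 window, and 45.0% of all windows hold at least 1. Windows of KLF5, KLF6, KLF7, KLF11 and KLF13 held GC boxes too, up to 7 in a KLF11 window, and the KLF9 window held none. The half-site TGACG, bound by CREB factors, occurred 2 times in the KLF4 window and 0 times in the KLF2 window, against 24.6% of windows with at least 1. A window of KLF5, of KLF11 and of KLF13 held the half-site as well. The pentamer CACCC occurred 0 times in the KLF2, KLF4, KLF6 and KLF9 windows, against 59.9% of windows. Windows of KLF5, which was also called lower, and of KLF7, KLF11 and KLF13 did hold it. These matches describe letters within short windows. The counts come from hg19, so the windows were used for their sequence only.

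The libraries held 16385878 to 16953331 gene counts, and 1 count equalled 0.0590 to 0.0610 CPM. SETD7 measured 27.8, 43.8 and 26.7 CPM in Set7KD replicates 1, 2 and 3, against 180.5, 178.4 and 176.1 CPM in the NTC replicates. The log2 fold change, Set7KD over NTC throughout, was -2.44 with a standard error (SE) of 0.21 and an edgeR adjusted p of 0.000927. Of 15 endothelial markers written, 13 were tested. By edgeR, at an adjusted p under 0.05, there were 5 higher (KDR, FLT1, TEK, ENG and ECSCR) and 3 lower (CDH5, TIE1 and ROBO4), against 17.6% and 18.6% of all genes; KDR, ENG and ROBO4 are named after their values were seen. FLT1, a VEGF receptor, stood at 9.44 ± 0.64 CPM in Set7KD and 5.28 ± 0.85 CPM in NTC (SD, n = 3 each), and ECSCR, an endothelial surface protein, at 45.4 ± 2.95 and 34.6 ± 2.53 CPM. Lower in Set7KD were CDH5, the cadherin of endothelial junctions, at 119 ± 11.4 CPM in Set7KD and 206 ± 32.1 CPM in NTC (SD, n = 3 each), and TIE1, an endothelial receptor kinase, at 87.3 ± 3.48 and 143.5 ± 6.74 CPM. VWF, the clotting factor carrier, stood at 10.1 ± 0.65 and 9.70 ± 2.25 CPM. PECAM1 and CLDN5 were not among the listed genes under these symbols, so neither could be tested. Summed over 8 fibroblast markers the range was 3236 to 4197 CPM in Set7KD and 1510 to 2081 CPM in NTC. Summed over 11 smooth muscle and pericyte markers it was 1063 to 1369 CPM in Set7KD and 678 to 764 CPM in NTC. Of these lists 5 and 4 genes were higher and 0 and 0 lower by edgeR, against the same 17.6% and 18.6% of all genes, and 6 and 6 were higher with the replicate block described further on (20.7% of all genes). The sums rest mostly on a few abundant genes. Named after its value was seen, COL1A1 had the widest gap in CPM of the fibroblast markers, at 2861 ± 395 CPM in Set7KD and 1555 ± 270 CPM in NTC. TAGLN had the widest gap in CPM of the smooth muscle and pericyte markers, at 551 ± 116 and 96.3 ± 16.8 CPM. On the log2 scale the widest of each list, also named after their values were seen, were COL3A1 at 2.73 and ACTG2 at 4.79. ACTG2 had 26.4 ± 7.32 CPM in Set7KD and 0.94 ± 0.51 CPM in NTC. THY1, LUM, ACTA2, MYH11, PDGFRB, RGS5 and MCAM passed in neither fit. The lowest defining fibroblast marker was LUM at 1.98 ± 0.16 and 1.56 ± 0.13 CPM. The part of these marker differences in the KLF results was not tested.

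KLF transcripts differed widely in abundance, and KLF6 was the most abundant of the family in every library. Per kilobase of exon, KLF6, a factor induced by vascular injury, had 63.9, 65.0 and 47.8 CPM per kb in Set7KD, against 89.4, 95.7 and 64.8 CPM per kb in NTC. KLF10 followed with 27.5 ± 8.61 CPM per kb in Set7KD and 46.7 ± 20.2 CPM per kb in NTC (SD, n = 3 each), and KLF9, which glucocorticoids induce, with 21.3 ± 3.74 and 27.2 ± 5.33 CPM per kb. In NTC the next levels were those of KLF2 at 26.1 ± 8.41, KLF4 at 22.4 ± 9.45 and KLF3 at 14.4 ± 2.31 CPM per kb, and the ranges of KLF10, KLF9, KLF2, KLF4 and KLF3 overlapped from each to the next. In Set7KD the fourth place went to KLF3 at 12.8 ± 0.84 CPM per kb, ahead of KLF2 at 10.5 ± 1.09 and KLF4 at 7.63 ± 1.85 CPM per kb, and each Set7KD library had more KLF3 than KLF2. KLF13, KLF7, KLF11 and KLF5 had the lowest means in both groups, with 7.08, 6.30, 4.10 and 2.001 CPM per kb in Set7KD and 7.01, 4.36, 3.80 and 2.68 CPM per kb in NTC. Of these, the ranges of KLF7 and KLF11 overlapped in NTC. In Set7KD the ranges of KLF13 and KLF7 each overlapped that of KLF4, and the ranges of KLF10 and KLF9 overlapped each other. Exon lengths come from GENCODE 29, a later annotation than the one counted, so levels between genes are approximate.

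**Figure D1:**
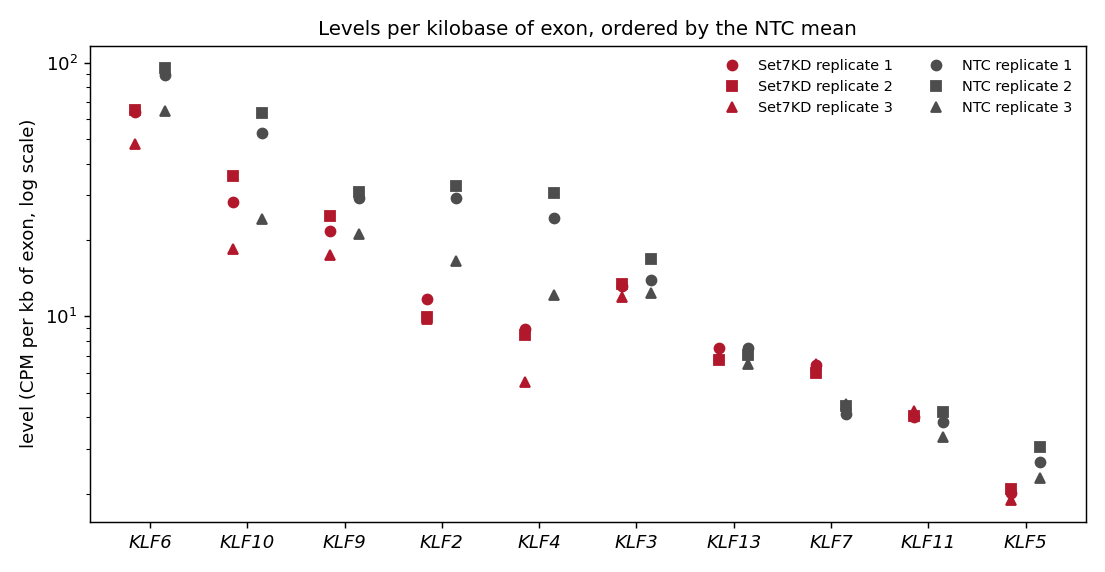
Level of each KLF transcript in CPM per kilobase of exon on a log axis, 1 symbol per library, Set7KD at the left of each pair and NTC at the right, ordered by the NTC mean. KLF6 leads in every library, and KLF2 and KLF4 stand below KLF3 in the Set7KD libraries.

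Summed over the 10 members, the level was 167.7, 176.1 and 130.5 CPM per kb in Set7KD, against 257.1, 288.9 and 167.7 CPM per kb in NTC. These sums overlap, since NTC replicate 3 stood within the Set7KD range. The make-up of the sum differed as well. KLF2 took 5.63 to 7.51% of it in Set7KD and 9.89 to 11.35% in NTC, and KLF4 took 4.22 to 5.31% in Set7KD and 7.21 to 10.6% in NTC. KLF6 took 36.6 to 38.1% in Set7KD and 33.1 to 38.6% in NTC, an overlapping range, while KLF7 took 3.40 to 4.98% in Set7KD and 1.54 to 2.69% in NTC.

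KLF2 and KLF4, the flow-responsive pair, had the lowest log2 fold changes of the family, KLF2 fell, and KLF5 fell by a smaller amount. KLF7 rose. KLF4 and the other 6 members did not pass when only the group was in the fit. By edgeR with an adjusted p under 0.05 over 18482 genes, 2 of 10 members were lower, against 18.6% of all tested genes, and 1 of 10 was higher, against 17.6%. The replicate block, given further on, moved the count of members lower to 7 of 10, against 22.1% of all genes. In bulk RNA fewer cells with a transcript and less of it per cell cannot be told apart.

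KLF2 (ENSG00000127528.5) measured 23.7, 20.0 and 19.8 CPM in Set7KD replicates 1, 2 and 3, against 58.9, 65.6 and 33.5 CPM in the NTC replicates. Every Set7KD library lay below every NTC library, and NTC replicate 3 was the lowest control. The log2 fold change was -1.31 (SE 0.31, edgeR adjusted p = 0.0321), which is 40.25% of the NTC level, and the gene ranked 192nd from the lowest fold change of all those tested. By exact permutation over the 6 CPM values (two-sided) p was 0.1, and 3 libraries against 3 can give no smaller value. The call held when NTC replicate 3 was left out, and was lost without any of the other 5 libraries, at an adjusted p of up to 0.109.

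KLF4 (ENSG00000136826.9), which acts beside KLF2 in endothelium and is also a reprogramming factor, had the lowest fold change of the family. Its level was 32.6, 31.0 and 20.2 CPM in Set7KD, against 89.0, 112.3 and 44.2 CPM in NTC. The groups did not overlap, but the NTC libraries differed among themselves by more than the distance from NTC replicate 3 to the Set7KD libraries. The log2 fold change of -1.55 (SE 0.45) did not pass, with an edgeR adjusted p of 0.0613. With the replicate number as a block, so that each Set7KD library is compared with the NTC library of its own number, it passed at -1.51 (SE 0.13, adjusted p = 0.00042).

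KLF5 (ENSG00000102554.8), known for its part in phenotype change of vascular smooth muscle, was the scarcest member. It had 7.87, 8.16 and 7.35 CPM in Set7KD, against 10.35, 11.9 and 9.01 CPM in NTC, from 120 to 198 counts per library. The groups did not overlap. KLF5 fell by 0.42 on the log2 scale (SE 0.12, edgeR adjusted p = 0.0157). The call was lost without Set7KD replicate 3 and without NTC replicate 2, with adjusted p of 0.0587 and 0.0801.

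KLF7 (ENSG00000118263.10), a factor studied mostly in neurons and adipose tissue, went the other way. Its level was 59.4, 55.4 and 60.1 CPM in Set7KD, against 38.25, 41.1 and 41.7 CPM in NTC. The groups were well apart and the libraries of each lay close together, with coefficients of variation of 4.32% in Set7KD and 4.57% in NTC. KLF7 rose by a log2 fold change of 0.53 (SE 0.07, edgeR adjusted p = 1.78e-05), to 144.5% of the NTC level. It was called in all 16 alternative settings run, with an adjusted p of at most 0.00594. The row for KLF7-IT1, a transcript from an intron of the gene, held 12 to 21 counts per library, against 654 to 982 for KLF7.

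KLF6 (ENSG00000067082.10) had 392.5, 398.8 and 293.4 CPM in Set7KD, against 548.9, 587.4 and 397.7 CPM in NTC. NTC replicate 3 stood just below Set7KD replicate 2, so the groups overlapped. The log2 fold change was -0.50 (SE 0.21, edgeR adjusted p = 0.141), and the block gave -0.49 (SE 0.04, adjusted p = 2.94e-07).

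KLF10 (ENSG00000155090.10), also called TIEG, an early response gene of TGF-beta, was the most variable member. It had 113.0, 142.7 and 74.0 CPM in Set7KD, against 210.9, 253.5 and 96.9 CPM in NTC. Its NTC replicate 3 lay under Set7KD replicates 1 and 2, and the coefficient of variation reached 31.4% in Set7KD and 43.3% in NTC. The log2 fold change was -0.77 (SE 0.48, edgeR adjusted p = 0.294), against -0.72 (SE 0.10, adjusted p = 0.0024) with the block. KLF11, the related TGF-beta-inducible factor, had 18.4, 18.5 and 19.5 CPM in Set7KD, against 17.7, 19.3 and 15.4 CPM in NTC. Its log2 fold change of 0.11 (SE 0.10) passed neither fit, with edgeR adjusted p of 0.407 and 0.345.

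KLF9 (ENSG00000119138.3) had 112.7, 128.6 and 90.1 CPM in Set7KD, against 152.2, 160.6 and 109.2 CPM in NTC. The groups overlapped through NTC replicate 3. The log2 fold change was -0.35 (SE 0.21, edgeR adjusted p = 0.284) without the block and -0.35 (SE 0.05, adjusted p = 2.91e-05) with it. KLF3, a repressor that works through the co-repressor CtBP, had 83.0, 84.6 and 74.7 CPM in Set7KD, against 87.7, 106.2 and 77.6 CPM in NTC. Its log2 fold change was -0.16 (SE 0.11, edgeR adjusted p = 0.278), and with the block -0.16 (SE 0.06, adjusted p = 0.0379). A processed copy of KLF3, KLF3P1, held 10 to 28 counts per library, against 1220 to 1764 for KLF3. KLF13, known as an activator of a chemokine gene in T cells, had 70.6, 63.2 and 65.9 CPM in Set7KD, against 70.6, 66.3 and 60.9 CPM in NTC. Its log2 fold change was 0.014 (SE 0.07, edgeR adjusted p = 0.892), and its sign changed when single libraries were left out. The zinc finger part is similar between members, and the sources used here do not state how multiply matching reads were counted.

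**Figure D2:**
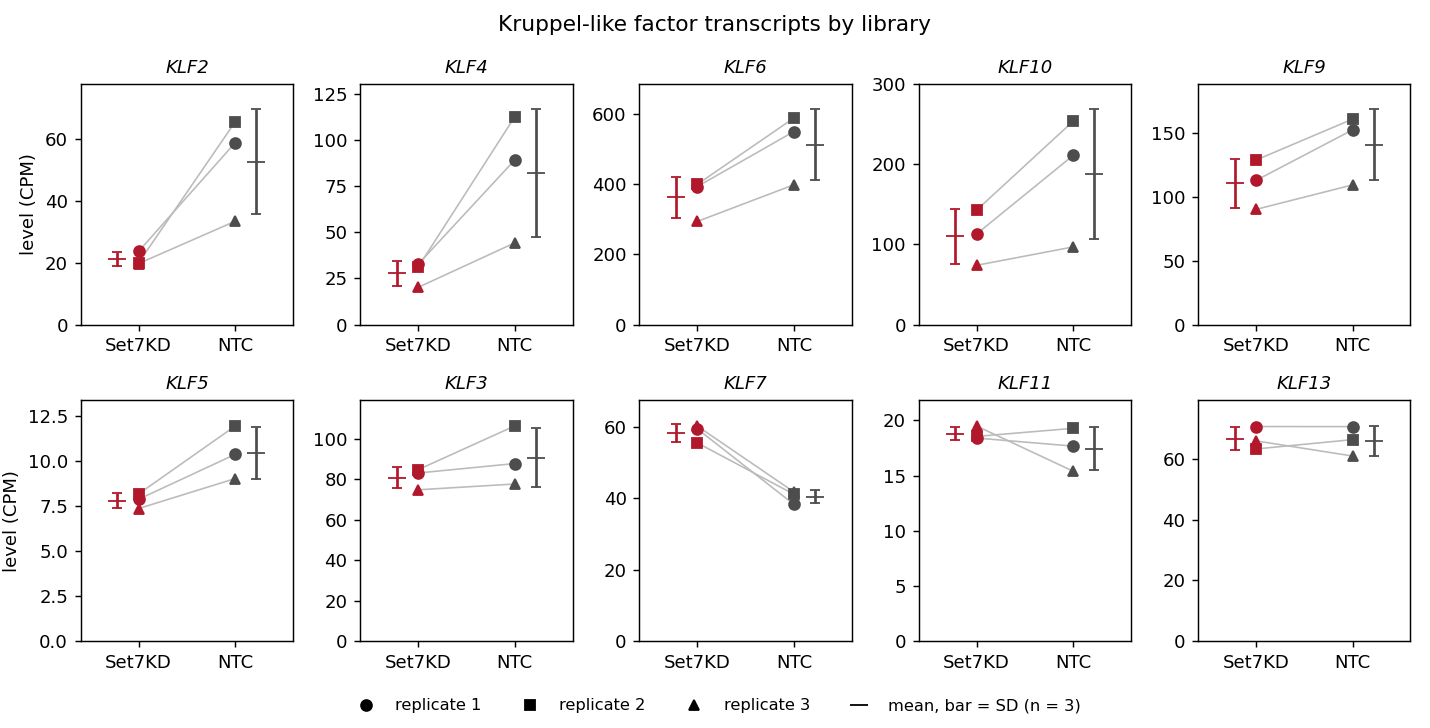
CPM of the 10 members in each library, with Set7KD at the left and NTC at the right of every panel; grey lines join libraries with the same replicate number, and bars beside the points are mean and SD (n = 3). The lines of KLF2, KLF4, KLF6, KLF10, KLF9, KLF5 and KLF3 all run higher at NTC, those of KLF7 all lower, and replicate 3 is the lowest NTC library in 9 of the 10 panels.

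Log2 ratios of Set7KD to NTC were also taken within each replicate number. KLF2, KLF3, KLF4, KLF5, KLF6, KLF9 and KLF10 were lower in Set7KD in each of the 3 numbers, which makes 7 of 10 members, against 33.0% of all tested genes. These members share libraries, and are not independent of each other. KLF4 had log2 ratios of -1.45, -1.86 and -1.13 within numbers 1, 2 and 3, and KLF2 had -1.31, -1.71 and -0.76. The ratios of KLF6 were nearly equal at -0.48, -0.56 and -0.44, whereas KLF10 had -0.90, -0.83 and -0.39. Number 3 gave the ratio nearest to 0 for all 7. KLF7 had ratios of 0.63, 0.43 and 0.53, and KLF11 and KLF13 had ratios of both signs. Without regard to numbers, 3 of 10 members were lower with no overlap between the groups, against 24.1% of all genes, and 1 of 10 was higher with no overlap, against 23.3%.

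When the replicate number entered the model as a block, 7 of 10 members were lower (KLF2, KLF3, KLF4, KLF5, KLF6, KLF9 and KLF10) by edgeR with an adjusted p under 0.05, against 22.1% of all genes, and 1 of 10 was higher, against 20.7%. KLF2 passed in it at -1.28 (SE 0.21, adjusted p = 0.0146) and KLF5 at -0.42 (SE 0.11, adjusted p = 0.00672). The fold changes hardly moved between the fits, by at most 0.05 for a member. The standard error of every member shrank, most for KLF4, KLF6, KLF9 and KLF10, and that of KLF3 went from 0.11 to 0.06. The labels do not explain the numbers, and that they pair the libraries was read from the data.

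**Figure D3:**
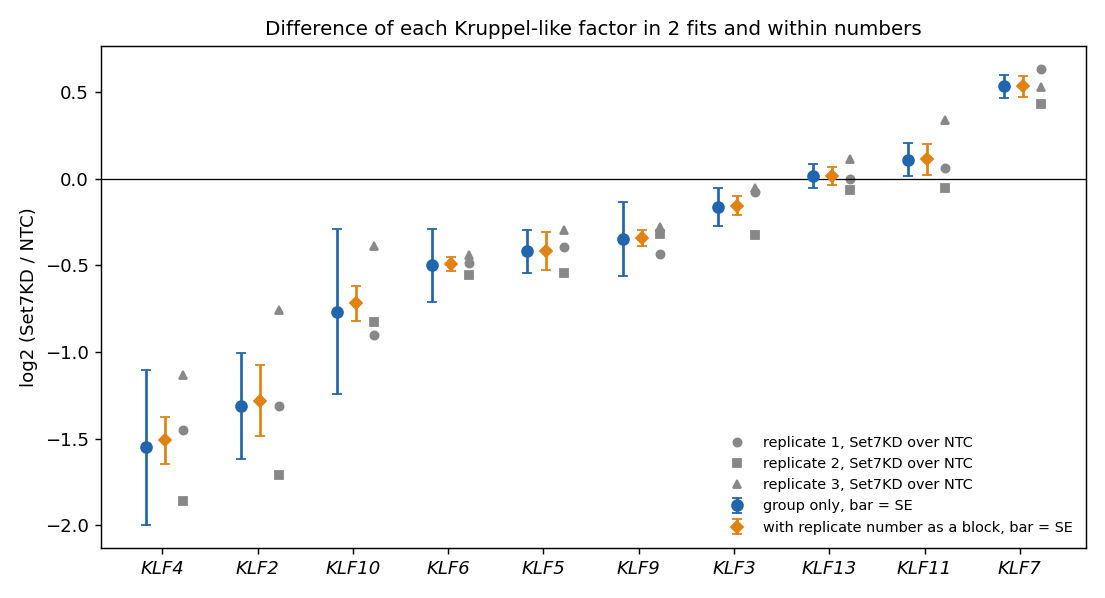
Log2 ratio of Set7KD to NTC for each member, from the group-only model (circles, bar = SE), from the model blocked on replicate number (diamonds, bar = SE) and within each number (grey symbols). The estimates of the 2 fits nearly coincide while the bars are shorter with the block, most for KLF4, KLF10, KLF6 and KLF9.

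The libraries numbered 3 were low for a subset of the members in both groups. Set7KD replicate 3 held 0.579 of the mean of Set7KD replicates 1 and 2 for KLF10, 0.634 for KLF4 and 0.9045 for KLF2. NTC replicate 3 held 0.417, 0.4395 and 0.5375 of the mean of NTC replicates 1 and 2 for the same genes. Among the 11151 genes averaging 10 CPM or more, the central 95% of these ratios ran from 0.804 to 1.20 in Set7KD and from 0.7645 to 1.225 in NTC. KLF6 at 0.742 in Set7KD and 0.700 in NTC and KLF9 at 0.747 and 0.698 also lay under these ranges in both groups, while KLF7 had 1.05 in both. For KLF2 the ratio was within the range in Set7KD and below it in NTC.

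**Figure D4:**
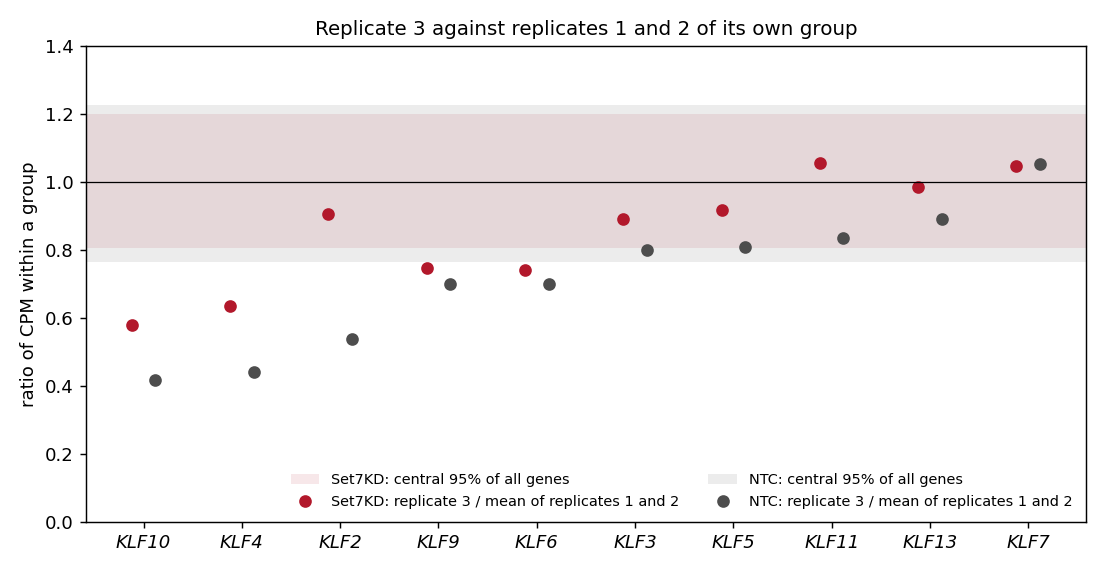
Level of replicate 3 divided by the mean of replicates 1 and 2 of the same group, Set7KD at the left and NTC at the right for each member; shaded bands hold the central 95% of genes averaging 10 CPM or more. KLF10, KLF4, KLF9 and KLF6 lie below the band of their group in both groups, and KLF2 lies below it in NTC.

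Leaving libraries out moved the count of members called lower by more than 1.5 times. Without NTC replicate 3 it was 6 (KLF2, KLF3, KLF4, KLF5, KLF6 and KLF9) by edgeR, against 17.8% of all genes, and without both libraries numbered 3, a choice made after the data were seen, it was 6 with KLF10 in place of KLF3, against 15.1%. KLF4 then had a log2 fold change of -1.85 (adjusted p = 0.00697) and -1.65 (adjusted p = 1.45e-07). Without any 1 of the other 5 libraries the count was 0 or 1, while 2545 to 3230 of all genes were lower.

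The genes whose pattern over the 6 libraries was most like that of KLF2 were JUN and PDGFB, with root mean square differences of centred log2 CPM of 0.13 and 0.14 among 11150 genes compared. JUN, an AP-1 subunit, had 264.6, 262.6 and 205.1 CPM in Set7KD and 628.7, 674.5 and 416.8 CPM in NTC. PDGFB, a growth factor that recruits pericytes, had 9.38, 10.1 and 7.72 CPM in Set7KD and 22.5, 25.4 and 13.8 CPM in NTC. Closest to KLF7 were SYT11, a vesicle protein gene, and NPTN, an adhesion molecule gene, at 0.031 and 0.032. KLF5 lay under the 10 CPM minimum and was not compared. Named after their values were seen, JUNB at 0.076 and IER2 at 0.095 were the closest to KLF4.

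Immediate early genes, which serum or stress switches on within minutes, showed the same split between the fits. Of 28 tested, 5 fell and 0 rose by edgeR, against 18.6% and 17.6% of all genes, with a median log2 fold change of -0.89 against -0.01 over all genes. With the block 25 were lower, against 22.1% of all genes. JUND, JUN and GADD45B fell with log2 fold changes of -0.59, -1.23 and -1.05 (edgeR adjusted p = 3.23e-05, 0.0186 and 0.0176), and FOSL1 by 0.28. ZFP36, named after its value was seen, was the fifth at -1.31 (adjusted p = 0.0447). Within numbers, 25 of 28 were lower in Set7KD in each of the 3, against 33.0% of all genes. Replicate 3 held a median of 0.661 in Set7KD and 0.625 in NTC of the mean of replicates 1 and 2 for these genes.

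Transcripts of the route that carries the flow signal to KLF2 and KLF4 went in both directions. The list holds kinases and MEF2 factors together with histone deacetylases that restrain MEF2. Activity of the kinases and factors was not measured. Of 12 tested genes of MEK5, ERK5 and MEF2 signalling, 1 rose and 3 fell by edgeR, against 17.6% and 18.6% of all genes, with a median log2 fold change of -0.04. MEF2A, a MEF2 factor, rose to 135 ± 2.55 CPM in Set7KD, against 103 ± 4.51 CPM in NTC (SD, n = 3 each; log2 fold change 0.39, adjusted p = 5.08e-05). MEF2D, another of them, fell to 56.5 ± 3.02 CPM, against 67.95 ± 6.07 CPM in NTC (log2 fold change -0.27, adjusted p = 0.00862). HDAC5 and HDAC9, class IIa histone deacetylases that restrain MEF2, fell with log2 fold changes of -0.40 and -0.56 (adjusted p = 0.000702 and 0.0332). HDAC9 was near the lower limit of detection, at 2.26 ± 0.43 CPM in Set7KD and 3.345 ± 0.40 CPM in NTC. MAPK7, which encodes ERK5, had 23.4 ± 2.17 CPM in Set7KD and 22.6 ± 1.23 CPM in NTC, and MAP2K5, which encodes MEK5, 14.8 ± 0.40 and 16.9 ± 0.88 CPM, and neither passed (adjusted p = 0.703 and 0.116).

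Reported endothelial targets of KLF2 and KLF4 went in both directions. Of 28 tested, a list that holds KLF2 and KLF4 themselves, 7 rose and 6 fell by edgeR, against 17.6% and 18.6% of all genes, and 9 were higher and 10 lower with the block, against 20.7% and 22.1%. The median log2 fold change was -0.02. NOS3, the endothelial nitric oxide synthase, was near the lower limit of detection at 2.05 ± 0.78 CPM in Set7KD and 1.73 ± 0.21 CPM in NTC. THBD, the anticoagulant receptor thrombomodulin, had 66.3 ± 7.01 and 51.9 ± 11.8 CPM, with a log2 fold change of 0.35 (SE 0.19). The edgeR adjusted p was 0.494 for NOS3 and 0.219 for THBD, so both missed the threshold. CAV1, the coat protein of caveolae, rose to 703 ± 26.6 CPM in Set7KD, against 407 ± 25.1 CPM in NTC (adjusted p = 1.61e-07). PPARG, a nuclear receptor, TFPI2, a protease inhibitor, and TEK, the angiopoietin receptor, rose with log2 fold changes of 0.96, 1.01 and 0.38 (adjusted p = 2.83e-05, 3.79e-05 and 0.00125). VCAM1, an adhesion molecule that KLF2 represses, had 42.1 ± 10.5 and 26.95 ± 3.47 CPM, with an adjusted p of 0.0549, and passed with the block at 9.76e-06. CCL2, a chemokine, had 39.1 ± 21.6 and 90.7 ± 26.2 CPM, with an adjusted p of 0.148, and passed with the block at 0.0334.

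TGF-beta signalling genes around KLF10 and KLF11 gave 4 higher and 2 lower of 14 tested by edgeR, against 17.6% and 18.6% of all genes, with a median log2 fold change of 0.02. With the block 4 were higher and 6 lower, against 20.7% and 22.1%. SMAD6, an inhibitory SMAD, was higher at 6.27 ± 1.92 CPM in Set7KD and 3.07 ± 0.35 CPM in NTC (adjusted p = 0.00267). TGFBR2, the type II receptor, was higher at 616 ± 40.0 and 427 ± 64.4 CPM (adjusted p = 0.00448), and so was SKIL, an inhibitor of the pathway (adjusted p = 0.00524). The lower genes, named after their values were seen, were the type I receptor TGFBR1 at -0.25 (adjusted p = 0.0246) and the signal transducer SMAD2 at -0.16 (adjusted p = 0.031). With the block SMAD4, the common partner SMAD, JUNB, an AP-1 subunit, ID1, an inhibitor of basic helix-loop-helix factors, and TGIF1, a co-repressor of SMADs, joined them with log2 fold changes of -0.12, -1.41, -0.94 and -0.44. SMAD7, an inhibitory SMAD whose gene KLF10 is known to repress, had 14.8 ± 1.51 and 12.4 ± 2.31 CPM and did not pass (adjusted p = 0.151).

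Annotated 3′ UTRs of 4 members, KLF7, KLF9, KLF11 and KLF13, held ATGAATC or TGAATCA on the sense strand, words picked in an earlier look at these data for going with lower fold changes. That is 40.0% of the 10 members, against 22.7% of 13004 tested genes with an annotated 3′ UTR and 28.2% of those called lower. Since the words were picked from these data, the higher share among genes called lower is no separate evidence. Any part of the words in the level of a member was not tested. The other 6 members, KLF2, KLF4 and KLF5 among them, held neither word there.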

How the data were processed

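Poly-A RNA of 6 HMEC-1 libraries was sequenced, 3 of Set7KD and 3 of NTC, grouped and numbered by their titles. The values are raw read counts per gene, deposited by the authors as a single table; per the submitters' processing notes the tools were BWA and bedtools and the build hg19, and strand use and multiple matches are not given in the sources used here. The last row, reads outside genes, took 55.6 to 56.1% of a library's counts and stayed out of totals and tests. Every listed gene had at least 60 counts over the 6 libraries.

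Counts were tested with edgeR 4.0.16 under R 4.3.3 (filterByExpr filter, TMM scaling, glmQLFit with robust estimation, glmQLFTest, group as the factor), with Benjamini-Hochberg adjustment over 18482 genes and calls at an adjusted p under 0.05. The scripts were tested on simulated data. No 2 libraries of a group looked like a repeat deposit (chi-square per degree of freedom 2.95 to 9.77). Over 11151 genes, same-numbered libraries deviated together from their group means (r = 0.30, 0.417 and 0.339, each over 0.1), so the numbers were taken as pairing, and the blocked fit is given beside the main one, which has no block. The pairing is read from these correlations and is not in the labels.

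The alternatives comprised 2 other scalings (relative log expression, upper quartile), no filter, a minimum of 50 counts throughout 1 group, DESeq2 1.42.0, the replicate block, limma-voom (limma 3.58.1), each library left out and, added later, both libraries of a number left out. The members and gene lists were chosen with earlier results of these data known. The text names SETD7, the members, up to 4 genes of smallest p in a list, genes that did not pass and, for members called, the 2 genes most alike in centred log2 (CPM + 0.5) among those with a mean of at least 10 CPM; CDH5 is added as a defining marker, and other exceptions are marked. Some genes that the rule names are not reported here. Lengths and 3′ UTRs are from GENCODE 29 and promoter windows from RefSeq.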

Additional observations from a re-analysis of the deposited data

How the results depend on the processing

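Members called lower numbered 2 as reported, 7 with the replicate block, 1 with limma-voom, 0 to 6 when 1 library was left out, and 0, 0 and 6 without both libraries numbered 1, 2 and 3. With the block KLF3, KLF4, KLF6, KLF9 and KLF10 joined KLF2 and KLF5. With DESeq2 it was 3, with KLF4 added at an adjusted p of 0.00233, and with limma-voom KLF2 missed at 0.0542. Members called higher numbered 1, KLF7, in every setting run, while genes higher over all genes ranged from 1414 to 3826. Over all genes, 3250 were higher and 3440 lower as reported, against 1414 and 1562 without both libraries numbered 1. Genes lower numbered 4090 with the block, 2688 with DESeq2, 3403 with limma-voom and 2545 to 3303 when 1 library was left out. Without both libraries numbered 2 and 3 they numbered 3113 and 2782. These fits tested 18453 to 18526 genes. KLF13 changed sign, between -0.040 and 0.066 when 1 library was left out and at -0.018 without both libraries numbered 3; the other members kept their sign in every setting. The scalings, no filter and the stricter filter changed no member's call, and the median log2 fold change of all genes stayed within 0.01 of 0 in them. The cause of the other changes was not tested. With 3 libraries a group, a single library decides the calls of KLF2 and KLF5, and the 4-library fits have few degrees of freedom.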

Other observations

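Co-regulators that KLF proteins recruit gave 3 higher and 5 lower of 16 tested by edgeR, against 17.6% and 18.6% of all genes. KAT2B, a histone acetyltransferase, fell to 26.5 ± 1.26 CPM in Set7KD, against 43.9 ± 4.996 CPM in NTC (SD, n = 3 each; adjusted p = 1.12e-05), and CTBP2, a co-repressor of the CtBP family, fell with a log2 fold change of -0.27 (adjusted p = 0.00256). SAP30, a subunit of the SIN3 complex, rose with a log2 fold change of 0.53 (adjusted p = 0.00388). Of 12 genes that act in the turnover of KLF and other proteins, 1 rose and 3 fell, against the same shares, and with the replicate block 2 were higher and 4 lower, against 20.7% and 22.1%. BTRC, a substrate receptor of ubiquitin ligases, rose at 0.37 (adjusted p = 0.000495), while VHL and FBXO32, also substrate receptors, fell at -0.53 and -1.03 (adjusted p = 7.19e-06 and 3.94e-05) and the deubiquitinase ATXN3 at -0.23 (adjusted p = 0.0407).

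Among 7 tested genes of the related SP family and of KLF12 and KLF16, 2 were lower and 0 higher by edgeR, against 18.6% and 17.6% of all genes, SP4 at -0.36 (adjusted p = 0.0114) and SP6 at -0.45 (adjusted p = 0.0115). KLF12 had 24.5, 24.9 and 24.9 CPM in Set7KD, against 25.85, 24.6 and 40.7 CPM in NTC, so that NTC replicate 3, the lowest control for 9 of the 10 members, was the highest for KLF12.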
